A study of Mus musculus with 6 samples.

Results

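The tumour necrosis factor (TNF) superfamily is a set of ligands, mostly made as trimers on the cell surface, and the TNF receptor superfamily is the set of receptors that bind them. Its members were chosen by gene symbol, from genes named Tnfsf or Tnfrsf with a number and from Tnf, Lta and Ltb, with 1 receptor gene left out, so the rule itself used no measured value, though it was set with earlier results of these data known. This gave 31 genes, 12 ligands and 19 receptors, of 19937 genes measured. Each was measured by 1 probe set whose accessions include a RefSeq transcript of the gene, and no filter on low signal was applied, so all 31 were tested. One further probe set is annotated to several ligand genes together and was not used here.

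Receptors of the family signal in several ways. Most recruit TRAF adaptors that lead to NF-kB and to survival or activation, and those with a death domain can also lead through FADD and caspase-8 to cell death, while decoy receptors bind ligand without signalling. Plasmacytoid dendritic cells (pDCs), which secrete type I interferon after sensing nucleic acids, also secrete TNF when their endosomal toll-like receptors are triggered.

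Affymetrix arrays measured RNA of pDCs sorted from mouse spleens as B220 and SiglecH positive cells. The groups were 3 samples labelled WT and 3 labelled KO for IRF8, a transcription factor of dendritic cell development, and the series title sets them in the question of how IRF8 acts late in pDC differentiation. The allele, strain, age and sex of the mice, and whether samples came from separate animals, could not be taken from the labels, so p-values reflect the spread of these 3 against 3 arrays alone, which may be technical. Irf8 itself was not lower in the arrays labelled KO, at 10.48 against 10.14 in WT (limma adjusted p = 0.425). Without knowing where the gene was altered, this value checks nothing, and all directions rest on the labels.

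Values are log2 expression levels as deposited, with array medians between 5.53 and 5.56. Levels of different genes come from different probes and are not compared with each other. Markers of the sorted cell type were high. The 12 measured of 14 pDC markers had mean levels of 10.77 to 10.95 in the WT arrays and 10.45 to 10.62 in the KO arrays. By limma 0 of them rose and 2 fell in KO, Ccr9 and Pacsin1. Of the 12 differences 9 were negative and 3 positive, with a median of -0.41. All KO arrays lay below the WT range for 7 and above it for 1, against 11.7% and 8.71% of all genes. At a limma unadjusted p under 0.05, 7 were lower and 1 higher, against 8.49% and 7.58% of all genes. The part of these shifts in the members' differences was not tested. KO replicate 1 stood apart through neutrophil markers, whose median shift from the WT mean was 4.0 there, against 0.53 and 0.12 in KO replicates 2 and 3. In WT replicate 1 the median shift was 0.24, but S100a8 and S100a9 were raised there too. S100a8 measured 9.34, 4.87 and 4.44 in WT replicates 1 to 3 and 12.70, 8.99 and 7.48 in KO replicates 1 to 3. S100a9 measured 9.12, 5.99 and 4.94 in WT and 12.65, 9.73 and 7.25 in KO. All 8 neutrophil markers had a positive difference and 0 passed the test (0 also at an unadjusted p under 0.05). Results that change without KO replicate 1 are given both ways. In RNA from a sorted population, a different share of cells and a different amount of RNA per cell cannot be told apart.

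Of the 31 members, 3 rose and 0 fell in KO at a limma adjusted p under 0.05 over all genes. All 3 were ligands: Tnfsf11, known as RANKL, the cytokine that drives osteoclast formation and supports dendritic cell survival; Tnfsf9, known as 4-1BBL, a costimulator of T cells; and Ltb, the lymphotoxin subunit that anchors lymphotoxin on the cell surface. By the same test 2.30% of all genes rose and 2.08% fell in KO, while 9.68% of the members rose. At an unadjusted p under 0.05, 8 members were higher and 2 lower, where 7.58% of all genes were higher and 8.49% lower, so the count of lower members was near that share. The members' median log2 difference was 0.10, against -0.04 over all genes.

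Promoter sequence is shown for the called members that RefSeq's promoter table of GRCm38.p6 lists, since both ligands were higher in KO and IRF8 binds DNA. The table lists 25 of the 31 members, and of the 3 that rose it holds Ltb and Tnfsf11. Each sequence below is the 250 bases before the annotated start, 5′ to 3′ on the gene's strand, chr17:35194257-35194506 on the + strand for Ltb and chr14:78308044-78308293 on the - strand for Tnfsf11. Capitals mark matches to the kB consensus, which NF-kB binds, to the ETS-IRF composite element GGAANNGAA and to the TATA motif TATAA, searched on both strands.
Ltb: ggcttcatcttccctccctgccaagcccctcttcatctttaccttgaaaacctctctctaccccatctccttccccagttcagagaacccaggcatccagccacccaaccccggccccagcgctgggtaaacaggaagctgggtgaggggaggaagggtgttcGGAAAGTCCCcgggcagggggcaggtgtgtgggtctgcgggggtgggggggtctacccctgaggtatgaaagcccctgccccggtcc
Tnfsf11: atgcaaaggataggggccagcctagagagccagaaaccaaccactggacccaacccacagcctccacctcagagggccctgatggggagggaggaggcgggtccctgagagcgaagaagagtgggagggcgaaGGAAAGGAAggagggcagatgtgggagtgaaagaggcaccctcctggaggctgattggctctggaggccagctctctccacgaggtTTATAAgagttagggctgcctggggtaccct

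The Ltb window held 1 match to the kB consensus, whose first base lies at -87 from the start, and such a match was in 3.9% of all 32851 windows of this length. It held no match to TATAA, to the paired IRF half-sites GAAANNGAA, to GGAANNGAA or to the AP-1 motif TGANTCA. The Tnfsf11 window held 1 match to GGAANNGAA at -117, which 6.99% of windows hold, and the TATA motif on both strands at -31 and -30, which 22.8% hold. It held no match to the kB consensus, to GAAANNGAA (7.13% of windows) or to TGANTCA (6.75%). The ETS core GGAA, which overlaps both marked elements, was in 93.4% of windows, with 5 matches for Ltb and 2 for Tnfsf11. A match is a description of the letters, and binding was not measured.

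Among the ligands, Tnfsf11 showed the largest rise of any member. It measured 6.56, 6.73 and 6.65 in WT replicates 1 to 3 and 8.94, 8.88 and 9.93 in KO replicates 1 to 3. All KO arrays lay above all WT arrays, and KO replicate 3 stood above the other KO arrays. The mean went from 6.64 ± 0.09 to 9.25 ± 0.59 (SD, n = 3 each), a 6.08-fold rise of 2.60 on the log2 scale (SE 0.27, limma adjusted p = 0.00221). An exact permutation test gave p = 0.10, and no smaller p is possible with this number of arrays. The call held in each of the 14 alternatives tried, with differences of 2.26 to 2.79 and adjusted p between 0.000695 and 0.0163.

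Tnfsf9 rose by a similar amount, with less spread than Tnfsf11 in KO and more in WT. Its levels were 6.82, 6.64 and 6.42 in WT replicates 1 to 3. In KO replicates 1 to 3 they were 9.41, 8.82 and 8.90. KO replicate 1 was the highest here, and the groups were far apart. The log2 difference was 2.41 (SE 0.19, limma adjusted p = 0.000573, exact permutation p = 0.10), a 5.32-fold rise from 6.63 ± 0.20 to 9.04 ± 0.32 (SD, n = 3 each). It held in all 14 alternatives, with differences of 2.23 to 2.52.

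Ltb rose less and its call rested on single arrays. It measured 7.53, 8.02 and 7.30 in WT replicates 1 to 3 and 8.90, 8.49 and 8.42 in KO replicates 1 to 3. The groups did not overlap, with the highest WT array, replicate 2, 0.40 below the lowest KO array. The log2 difference was 0.99 (SE 0.21, limma adjusted p = 0.0451, exact permutation p = 0.10), or 1.98-fold, between 7.62 ± 0.37 and 8.61 ± 0.26 (SD, n = 3 each). The call was lost without any single array other than WT replicate 2 (adjusted p from 0.0574 without KO replicate 1 to 0.134 without WT replicate 3), with quantile normalization (0.0735) and, in a setting chosen after the data were seen, without both arrays numbered 1 (0.108). The difference stayed between 0.80 and 1.19 in all 14 alternatives.

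**Figure D1:**
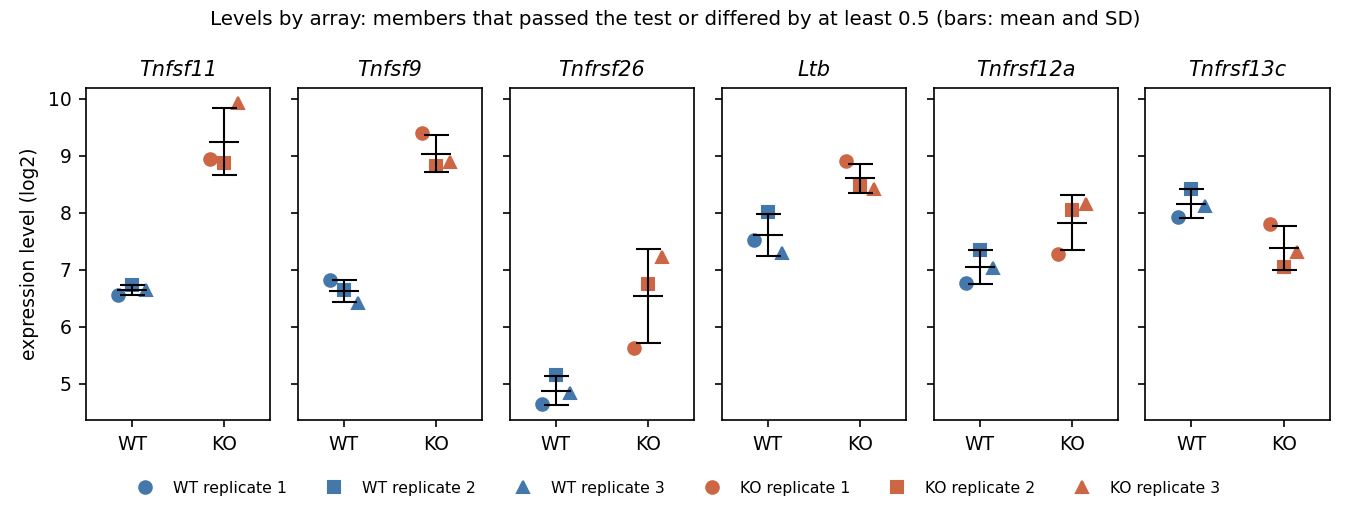
Log2 expression level (y axis) of 6 members in each WT and KO array (x axis: group; symbol: replicate), with black bars for the mean and SD of 3 arrays. The 3 members that passed the test and the 3 others that differed by at least 0.5 are shown: Tnfsf11, Tnfsf9 and Ltb have every KO array above every WT array, and Tnfrsf26 rises from WT levels under 5.2 to 5.62, 6.75 and 7.23 in the KO arrays. Levels of different genes are not comparable.

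The remaining 9 ligands passed in neither direction. Tnf, the founding cytokine of the family, measured 8.54, 8.58 and 9.02 in WT and 8.52, 9.19 and 9.12 in KO, so the groups overlapped and the log2 difference was 0.23 (95% interval -0.27 to 0.73, limma adjusted p = 0.697). Lta, which forms soluble lymphotoxin alone and surface lymphotoxin with Ltb, differed by 0.20 (-0.18 to 0.58, adjusted p = 0.651). Ltb, Tnf and Lta are neighbouring genes on chromosome 17, and of these 3 Ltb was the one called.

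Tnfsf14, known as LIGHT, a ligand of Ltbr and Tnfrsf14, lay above WT in every KO array, at 5.19, 5.31 and 5.42 against 4.87, 4.56 and 5.08, but did not pass the test (difference 0.47, limma adjusted p = 0.169). Tnfsf10, known as TRAIL, which induces cell death through Tnfrsf10b, measured 5.01, 5.46 and 5.42 in WT. In KO it measured 5.26, 5.99 and 6.03, so KO replicate 1 lay within the WT range. Its difference was 0.47 (adjusted p = 0.396), and it passed without KO replicate 1 (0.72, adjusted p = 0.0427).

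Tnfsf13b, known as BAFF, a survival factor of B cells, measured 4.10, 4.08 and 4.21 in WT and 4.53, 4.45 and 4.30 in KO, a difference of 0.30 that did not pass (limma adjusted p = 0.233). Tnfsf4, the OX40 ligand, differed by 0.43 (adjusted p = 0.345), with KO replicate 3 at 4.61 and the other 2 KO arrays at 3.94 and 3.97, close to the highest WT array at 3.90. Tnfsf8, the CD30 ligand, differed by 0.27, Tnfsf15, known as TL1A, by -0.24 and Tnfsf18, the GITR ligand, by -0.12 (adjusted p of 0.534, 0.38 and 0.696). Tnfsf13b, Tnfsf4, Tnfsf8 and Tnfsf18 had 6-array means below the 25th percentile of all genes, 4.58, and a low signal can understate a difference.

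No receptor passed the test: of 19, 0 rose and 0 fell by limma over all genes, while 5 had an unadjusted p under 0.05 in either direction, beside the shares of all genes given above. Their median difference was 0.04, that of the ligands 0.37. Ligands were called in 3 of 12 cases and receptors in 0 of 19, and the difference between the classes was not tested. All KO arrays lay above the WT range for 6 ligands and 3 receptors, together 29% of members, where 8.71% of all genes did so. They lay below it for 1 ligand and 3 receptors, together 12.9% of members, against 11.7% of all genes. Many of these gaps were small. Above the WT range they ran from 0.0023 for Tnfrsf8 to 2.15 for Tnfsf11, with 0.0475 for Tnfsf4, 0.0692 for Tnfrsf22 and 0.0887 for Tnfsf13b. Below it they ran from 0.039 for Tnfsf15 to 0.109 for Tnfrsf13c.

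**Figure D2:**
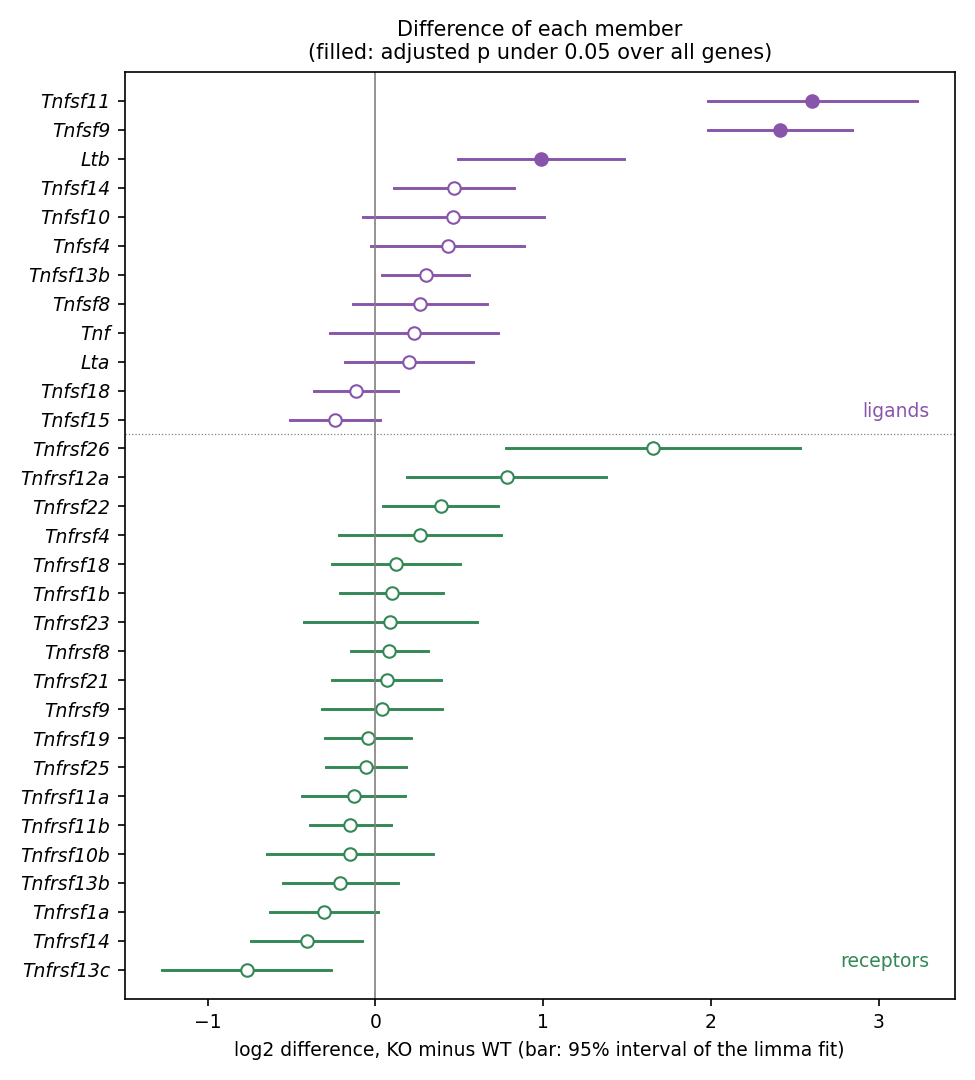
Log2 difference, KO minus WT (x axis), of each of the 31 members (y axis), ligands in purple above and receptors in green below, with the unadjusted 95% interval of the limma fit. Filled points passed an adjusted p of 0.05: the ligands Tnfsf11 (2.60), Tnfsf9 (2.41) and Ltb (0.99). Tnfrsf26 (1.65) has the largest difference among the receptors and is not filled.

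Tnfrsf26 had the largest difference among receptors and the widest spread. It belongs with Tnfrsf22 and Tnfrsf23 to a row of neighbouring genes on chromosome 7, the latter pair encoding decoy receptors for TRAIL. It measured 4.65, 5.15 and 4.84 in WT replicates 1 to 3 and 5.62, 6.75 and 7.23 in KO replicates 1 to 3. Every KO array lay above the WT range, but replicate 1 by much less than replicates 2 and 3. The difference was 1.65 (SE 0.38, limma adjusted p = 0.0546), just outside the threshold, between 4.88 ± 0.26 and 6.53 ± 0.82 (SD, n = 3 each). Without KO replicate 1 it was 2.11 (adjusted p = 0.0014), and it also passed with a variance trend (0.0437) and with array weights (0.00988). Among genes above the median level its adjusted p was 0.0335. Its 6-array mean of 5.71 exceeds that level, 5.69, only through its KO mean, so this setting is no separate evidence.

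Tnfrsf22 was above WT in every KO array, at 6.87, 6.69 and 6.61 against 6.37, 6.54 and 6.09, with a difference of 0.39 (limma adjusted p = 0.24), and Tnfrsf23 differed by 0.09 (adjusted p = 0.905). Similar genes of this row can share a probe set's signal. The soluble decoy Tnfrsf11b, known as osteoprotegerin, which blocks RANKL, differed by -0.15 (95% interval -0.39 to 0.09, adjusted p = 0.581).

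Tnfrsf12a, known as Fn14, the receptor of TWEAK, measured 6.77, 7.35 and 7.03 in WT. In KO replicates 1 to 3 it measured 7.28, 8.06 and 8.15, so KO replicate 1 fell within the WT range. The difference was 0.78 (SE 0.25, limma adjusted p = 0.168). Without KO replicate 1 it was 1.06 (adjusted p = 0.0149), and it also passed with array weights (0.0391).

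Tnfrsf13c, known as the BAFF receptor, had the largest negative difference of the members. It measured 7.92, 8.43 and 8.13 in WT and 7.81, 7.06 and 7.31 in KO. All KO arrays lay below the WT range, replicate 1 by 0.11 only. The log2 value differed by -0.77 (SE 0.22, limma adjusted p = 0.113), and it was -0.98 without KO replicate 1 (adjusted p = 0.0183) and -0.92 with array weights (0.0269). Tnfrsf13b, known as TACI, which also binds BAFF, differed by -0.21 (adjusted p = 0.584).

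The 4 receptors with a death domain had differences between -0.31 and 0.07. Tnfrsf1a, the TNF receptor present on most cells, was lower in every KO array (7.70, 7.59 and 7.49 against 7.77, 7.79 and 8.15) without passing the test (-0.31, limma adjusted p = 0.338). Tnfrsf10b, the TRAIL receptor, differed by -0.15, Tnfrsf25, the receptor of TL1A, by -0.06 and Tnfrsf21, known as DR6, by 0.07.

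Among 6 receptors best known as lymphocyte costimulators, the differences ran from -0.41 to 0.27. Tnfrsf14, known as HVEM, was lower in each KO array (6.93, 6.81 and 6.81 against 7.33, 6.99 and 7.45), with a difference of -0.41 (limma adjusted p = 0.197). Tnfrsf1b, the other TNF receptor, differed by 0.10 (95% interval -0.21 to 0.41), Tnfrsf18, known as GITR, by 0.12, Tnfrsf4, known as OX40, by 0.27 and Tnfrsf8, known as CD30, by 0.08. Tnfrsf9, the receptor of Tnfsf9, measured 5.85, 5.61 and 5.54 in WT and 5.59, 5.98 and 5.56 in KO, a difference of 0.04 (-0.32 to 0.40).

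Tnfrsf11a, known as RANK, the receptor of Tnfsf11, measured 5.37, 5.10 and 5.09 in WT and 5.05, 5.21 and 4.91 in KO, a difference of -0.13 (95% interval -0.44 to 0.18). Tnfrsf19, known as TROY, a receptor of the nervous system and epithelium, differed by -0.04 (-0.30 to 0.21).

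Ligand and receptor were set side by side for 21 known pairs with both genes measured. The 3 called ligands formed 4 of these pairs, and their 4 receptors, Tnfrsf9, Tnfrsf11a, Tnfrsf11b and Ltbr, passed in neither direction by limma. Ltbr, the receptor of surface lymphotoxin and LIGHT, measured 6.42 in WT and 6.56 in KO (difference 0.14, 95% interval -0.14 to 0.42, adjusted p = 0.664). A missed threshold does not show that these receptors were unchanged.

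Of the members, 17 lie in 8 rows of superfamily genes that are at most 3 protein-coding genes apart in the RefSeq order of GRCm38.p6, Fasl, Cd70, Cd27 and Ltbr included. Tnfsf9 was called and its neighbours on chromosome 17 were not: Cd70, next to it, differed by -0.08 and Tnfsf14, the gene after that, by 0.47. Likewise Ltb was called beside Tnf and Lta. Tnfsf11 has no superfamily neighbour. In the other 6 rows no gene was called.

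**Figure D3:**
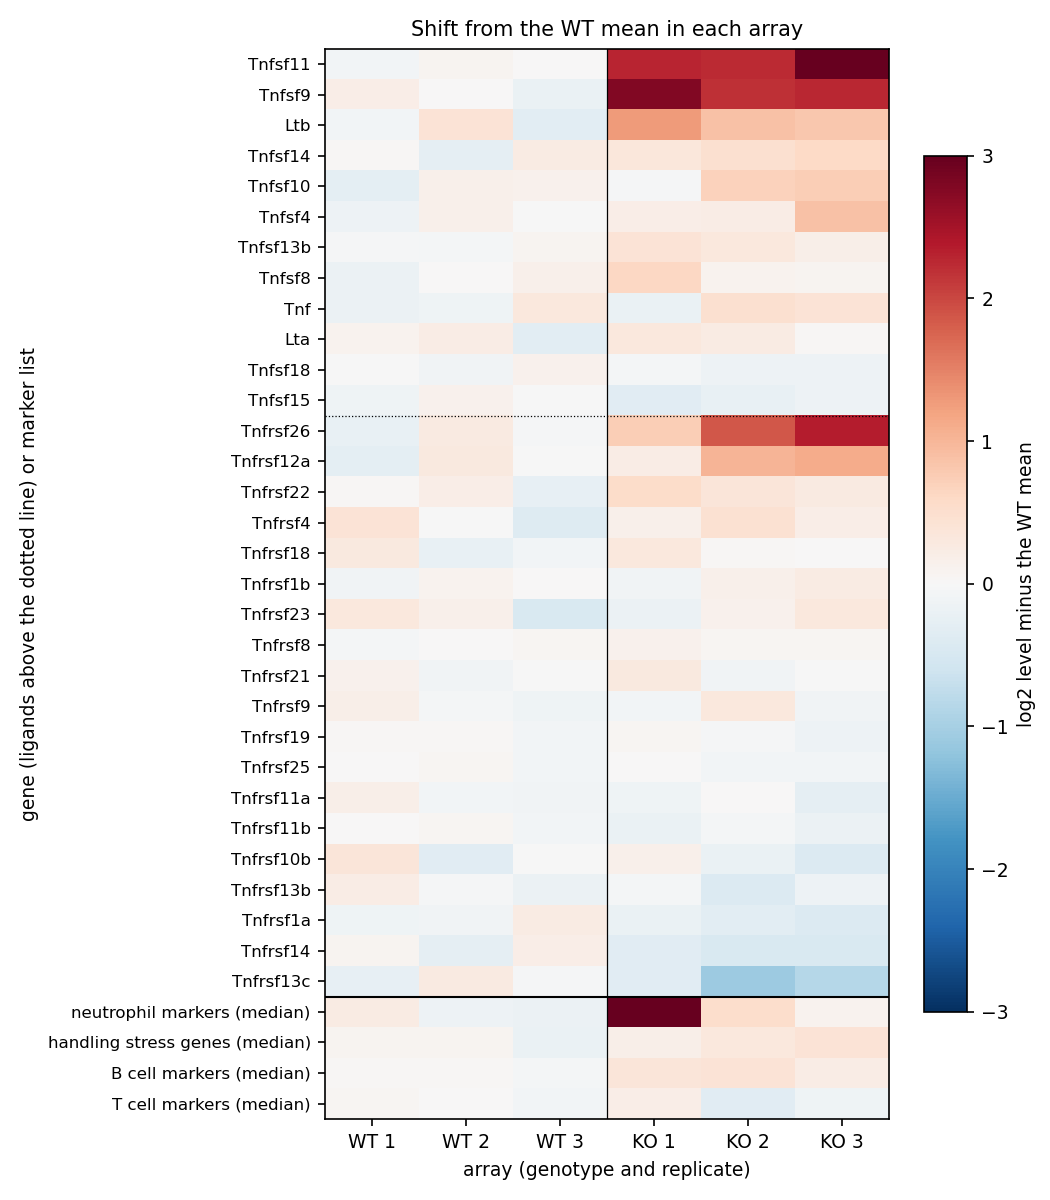
Log2 level minus the gene's WT mean (colour, ending at -3 and 3) for the 31 members (rows, ligands above the dotted line) in the 6 arrays (columns). The 4 lowest rows show the median shift of 4 marker lists. Tnfsf11, Tnfsf9 and Ltb are raised in every KO array, Tnfrsf26 and Tnfrsf12a mostly in KO replicates 2 and 3, and neutrophil markers mostly in KO replicate 1 (4.0).

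Several members moved more in KO replicates 2 and 3 than in replicate 1. Without KO replicate 1, 5 members rose (Tnfsf11, Tnfsf9, Tnfrsf26, Tnfrsf12a and Tnfsf10) and 1 fell (Tnfrsf13c), while Ltb no longer passed. Over all genes 3.91% were then higher and 3.61% lower by limma. Leaving out both arrays numbered 1 gave the same 6 genes. The neutrophil markers had mean levels of 9.13 in KO replicate 1 and no more than 6.02 in any WT array, and their part in the lower values of that array was not tested. A list of 17 immediate early and handling stress genes was chosen after the data were seen. It shifted by 0.17, 0.32 and 0.41 in KO replicates 1 to 3, in the order of Tnfrsf26, Tnfrsf12a and Tnfsf10. These 3 genes are named because they became calls without KO replicate 1. Their low place in that array therefore came with the choice, and the shared order is no separate evidence. In WT replicates 1 to 3 the list shifted by 0.09, 0.08 and -0.21, while the 3 genes were lowest in replicate 1 and highest in replicate 2. Of the 16 measured, 1 rose (Ier3, by 2.48) and 0 fell by limma. At a limma unadjusted p under 0.05, 5 were higher and 0 lower, beside 7.58% and 8.49% of all genes. All KO arrays lay above the WT range for 4 of them and below it for 0, beside 8.71% and 11.7% of all genes. Other lists shifted in the same KO order. The 6 plasma cell markers shifted by 0.56, 1.53 and 1.63 in KO and by -0.16, 0.12 and 0.36 in WT. The TNF release genes shifted by -0.23, 0.22 and 0.31 in KO and by -0.04, 0.02 and 0.04 in WT. For the signalling genes the shifts were 0.04, 0.04 and 0.09 in KO and -0.10, -0.04 and 0.09 in WT. The part of these lists in the members' values was not tested.

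**Figure D4:**
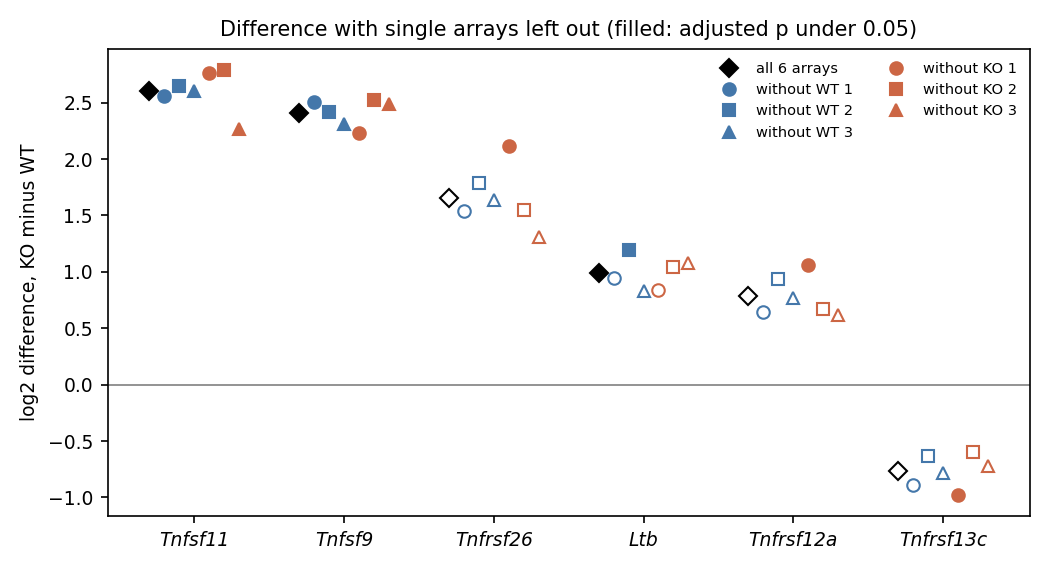
Log2 difference, KO minus WT (y axis), of the 6 members shown by array above (x axis), with all arrays (black diamonds) and with each array left out (blue: a WT array, orange: a KO array). Filled symbols passed an adjusted p of 0.05: Tnfsf11 and Tnfsf9 pass in every case, Ltb with all arrays or without WT replicate 2, and Tnfrsf26, Tnfrsf12a and Tnfrsf13c without KO replicate 1.

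Ltb, Tnfsf9 and the BAFF receptors are also expressed by B cells, and RANKL and lymphotoxin by T cells, so markers of both, and of other cells, were read beside them. Of 11 measured B cell markers, 4 rose and 0 fell by limma (Blk by 2.42, Cd79a by 1.65, Cd22 by 1.51 and Fcer2a by 0.60). By this test 2.30% of all genes rose and 2.08% fell. All KO arrays lay above the WT range for 6 and below it for 0, against 8.71% and 11.7% of all genes. At a limma unadjusted p under 0.05, 6 were higher and 0 lower, beside 7.58% and 8.49% of all genes. The list's mean level was 5.20 to 5.36 in the WT arrays and 5.87 to 6.04 in the KO arrays. The B cell marker Ms4a1, which encodes CD20, measured 3.53 to 3.60 in WT and 3.13 to 3.91 in KO, below the 25th percentile of all genes in every array. Pax5 differed by 0.32 and Ebf1 by 0.57, both with all KO arrays above the WT range (limma adjusted p = 0.186 and 0.195). The mean of Ebf1 was also below that percentile. Of the list's differences 8 were positive and 3 negative. Of 10 T cell markers 2 rose (Icos by 1.57 and Cd5 by 1.09) and 2 fell (differences of -1.18 for Cd4 and -1.16 for Cd8b1) by limma. At an unadjusted p under 0.05, 2 were higher and 3 lower. Opposite changes offset each other in the list's mean level, which was 6.97 to 7.13 in WT and 6.90 to 7.17 in KO. The CD3 chain gene Cd3e measured 5.64 to 5.88 in WT and 5.44 to 6.14 in KO.

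Of 6 plasma cell markers, 2 rose and 0 fell by limma: Prdm1, a transcription factor of plasma cells, by 3.49 and Sdc1, a surface proteoglycan, by 2.48. The list went both ways, with 4 positive and 2 negative differences. Mzb1 differed by -0.97, with all KO arrays below the WT range (limma adjusted p = 0.0859). Xbp1 differed by -0.25 (0.695) and Irf4 by 1.71 (0.0722). At a limma unadjusted p under 0.05, 3 were higher and 1 lower, beside 7.58% and 8.49% of all genes. The list's mean level was 6.68 to 7.64 in the WT arrays and 7.98 to 8.94 in the KO arrays, while Jchain, the antibody joining chain, measured 4.49, 8.41 and 7.96 in WT and 7.24, 8.04 and 7.90 in KO. Of 12 markers of conventional dendritic cells, 3 rose (Itgam by 1.89, Itgax by 1.78 and Flt3 by 0.94) and 4 fell (differences of -6.32 for Clec9a, -3.73 for Cd209a, -2.62 for Clec10a and -1.71 for Cadm1), with mean levels of 7.83 to 8.02 in WT and 7.02 to 7.17 in KO. Of 8 macrophage and monocyte markers, 0 rose and 2 fell (differences of -1.55 for Cd68 and -1.47 for C1qb), with mean levels of 6.35 to 7.04 in WT and 5.99 to 6.15 in KO. Of 11 markers of NK and innate lymphoid cells, 0 rose and 0 fell by limma (2 higher and 1 lower at an unadjusted p under 0.05). At an unadjusted p under 0.05, 3 conventional dendritic cell markers were higher and 5 lower. Of the macrophage and monocyte markers 1 was higher and 4 lower. Beside the calls of each list stand 2.30% of all genes higher and 2.08% lower by limma. The part of any of these cells in the members' differences was not tested.

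Superfamily genes with other symbols, a list of 12 with Cd40, Cd27, Fas, Ltbr, their partners and relatives, did not pass in either direction (0 rose and 0 fell by limma, and 1 was higher and 0 lower at an unadjusted p under 0.05). Their median difference was -0.08. The 1 was Cd27, a costimulatory receptor named after its values were seen, at 6.19, 5.93 and 6.47 in WT and 7.29, 6.40 and 6.62 in KO (0.57, adjusted p = 0.306). Ligands known from T cells were in this list, and Cd40lg and Fasl differed by -0.16 and -0.09.

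Genes that act downstream of the receptors mostly passed in neither direction. Of 43 listed adaptors, kinases, NF-kB subunits and their regulators, 39 were measured, 2 rose and 0 fell by limma, and 7 were higher and 2 lower at an unadjusted p under 0.05 (median difference 0.08), beside 7.58% and 8.49% of all genes. Traf1, an adaptor that binds TRAF2 and is itself induced by NF-kB, measured 7.48, 8.19 and 7.66 in WT. In KO it measured 8.54, 9.07 and 9.34, a rise of 1.21 (SE 0.25, adjusted p = 0.0387). Otulin, which cleaves linear ubiquitin chains and so restrains this signalling, measured 8.26, 8.50 and 8.34 in WT and 8.87, 9.53 and 9.72 in KO, a rise of 1.01 (SE 0.22, adjusted p = 0.0458).

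Both calls were near the threshold. They were lost with array medians centred, where the differences stayed at 1.22 for Traf1 and 1.01 for Otulin (limma adjusted p = 0.0514 and 0.0687), and without any of WT replicates 1 and 3 and KO replicates 2 and 3, and that of Otulin also without WT replicate 2 (highest 0.148 and 0.175). Without single arrays the differences ran from 1.03 to 1.43 for Traf1 and from 0.83 to 1.26 for Otulin. Without KO replicate 1, 6 of the 39 rose: Traf1, Otulin, Rel, Nfkbia, Nfkbie and Birc2, of which 4 (all but Traf1 and Otulin) are named because of their values. With all arrays Nfkbia, the NF-kB inhibitor and target, differed by 0.87 (adjusted p = 0.0612).

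Of 8 genes of TNF release and mRNA decay, 0 rose and 1 fell by limma, beside 2.30% and 2.08% of all genes. At an unadjusted p under 0.05, 0 were higher and 2 lower, beside 7.58% and 8.49% of all genes. Rhbdf2, known as iRhom2, which brings the TNF sheddase ADAM17 to the cell surface in leukocytes, measured 7.57, 7.64 and 8.21 in WT and 6.21, 6.75 and 6.69 in KO. The groups did not overlap, and it fell by 1.26 (SE 0.21, adjusted p = 0.0179). Leaving out WT replicate 2 (-1.34, adjusted p = 0.052) or KO replicate 3 (-1.32, 0.0531) ended this call with the difference no smaller. Adam17 itself differed by 0.34 (adjusted p = 0.568), and Zfp36, which promotes decay of Tnf mRNA, by 0.27 (adjusted p = 0.328).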

How the data were processed

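The deposited values were log2 expression levels of 34760 probe sets on 6 Affymetrix arrays. Per the labels' protocols, RNA was amplified with NuGen PICO SL and labelled with biotin. How the authors corrected, summarised and normalized these log2 values is not given in the sources used here. Of the probe sets, 21640 had 1 gene symbol in the platform annotation, and the brightest by its 6-array mean stood for each of 19937 genes.

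KO was compared with WT by limma 3.58.1 (R 4.3.3), lmFit and eBayes, without covariates, two-sided, with Benjamini-Hochberg adjustment over all genes and a threshold of 0.05, and tested on simulated data. Exact permutation tests used all 20 relabellings. Groups came from the sample titles. The members and gene lists were chosen with earlier results of these data known. Members past the threshold are given by array, those differing by at least 0.5 as values, and the others by role. The replicate numbers were not taken to pair the samples. Alternatives were another normalization, filter, probe set rule, variance model, array weights, a block and leaving out arrays. The number of arrays limits the precision. Figures used matplotlib 3.10.9.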

Additional observations from a re-analysis of the deposited data

How the results depend on the processing

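The rises of Tnfsf11 and Tnfsf9 kept their call in all 14 alternatives. Over all genes, 459 were higher and 415 lower. These counts became 707 and 655 with the replicate block, 716 and 647 with array weights, and 741 and 641 without both arrays numbered 1, which was chosen after the data were seen. Leaving out single arrays gave 249 to 780 higher and 202 to 719 lower genes. Of the members, 3 were higher and 0 lower. There were 5 higher and 0 lower with the replicate block, 5 and 1 with array weights, 5 and 1 without both arrays numbered 1, and 2 to 5 and 0 to 1 without single arrays. The 2 higher signalling genes became 0 with array medians centred, 4 with the replicate block, 4 with array weights, 6 without both arrays numbered 1 and 0 to 6 without single arrays. The 1 lower gene of TNF release became 0 to 1 without single arrays. The cause of these changes was not tested.

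Same-numbered WT and KO arrays deviated from their group means with correlations of 0.38, 0.10 and 0.25 for replicates 1 to 3, the second being 0.097 and under the 0.1 required, and KO replicate 2 correlated best with WT replicate 3 (0.20), so the numbers were not taken as pairs. With the replicate block, Tnfrsf26 (adjusted p = 0.0121) and Tnfrsf12a (0.027) passed beside the 3 ligands. Differences near 0 changed sign with single arrays left out, from -0.33 to 0.024 for Tnfrsf10b, -0.094 to 0.015 for Tnfrsf19, -0.050 to 0.15 for Tnfrsf21, -0.14 to 0.24 for Tnfrsf23 and -0.098 to 0.13 for Tnfrsf9. With array weights Tnfrsf21 was at -0.0053. None of these 5 passed in any alternative.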
